A study of Arabidopsis thaliana with 42 samples.

Results

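Roots of the bzip19 bzip23 double mutant were compared with wild type roots of Arabidopsis thaliana grown throughout at normal zinc. The 8 arrays, 4 of each genotype, were all those labelled as roots at 2 µM zinc sulfate, out of 42 arrays in the series. The mutant carries T-DNA insertions in bZIP19 and bZIP23 in the Columbia (Col-0) background, and the wild type was Col-0. Plants of both genotypes stood in hydroponic nutrient solution for 4 weeks, 3 weeks of growth and 1 week that for other plants was the treatment week, at 2 µM zinc in both periods. Each sample was total RNA from the pooled roots of 6 plants from 2 containers, hybridised to 1 ATH1 array, and the 8 arrays shared an array date. The series also holds roots and shoots of both genotypes moved for the last week to 0.05 µM (low) or 25 µM (excess) zinc, and shoots at 2 µM. Nothing in the labels says whether replicates came from separately grown sets of plants, so p-values measure the spread between these samples, which may be technical. The mutant is 1 double insertion line, and whole roots were used, so fewer cells of a type and less RNA per cell cannot be told apart.

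bZIP19 and bZIP23 are closely related transcription factors of the F group of the bZIP family. When zinc runs short they activate genes that carry the zinc deficiency response element, among them ZIP family zinc importers, nicotianamine synthases, which make a metal chelator, and small defensin-like proteins. Zinc binds a histidine- and cysteine-rich stretch of these proteins, and in zinc-replete roots their targets are normally at low or moderate levels. The comparison at 2 µM asks how far gene expression depends on the pair when zinc is in normal supply.

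The values are RMA log2 signals, so that a difference of 1 is a 2-fold difference in signal. The deposited table held 22810 probe sets, of which 64 array controls were left out and 22746 were tested. A probe set is called here when its adjusted p from limma (Benjamini-Hochberg over the 22746) was under 0.05, with the spread estimated from all 24 root arrays. An unadjusted p under 0.05, which some probe sets reach by chance, was found for 2651 (11.7%), 1626 higher and 1025 lower in mutant roots. Of the 22746, 13 were called (0.0572%), 12 of them lower (0.0528%) and 1 higher (0.0044%) in mutant roots. The median difference over all probe sets was 0.00 log2, and the 1st and 99th percentiles were -0.51 and 0.45. Of the 13, 5 were paired with a single gene in the annotation used, 1 with 2 genes and 7 with none, and those 7 are given by their probe set names.

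Arrays of the same genotype correlated with a mean r of 0.9935 in mutant and 0.993 in wild type across probe sets, and arrays of different genotype with 0.991. Wild type replicate 1 stood apart from the other wild type arrays. Its root mean square deviation from the wild type mean was 0.191 log2, against 0.109 to 0.158 for the others, and without it 348 probe sets were called (1.53%), 228 higher and 120 lower. That fit kept mutant replicate 1, whose deviations from its group mean went with those of wild type replicate 1 (r of 0.50 across probe sets). Without mutant replicate 2 the count was 24, and without each of the other 6 arrays it was 11. The replicate numbers were taken to pair samples across groups, which was checked in the 8 arrays at 2 µM only. As a block over the 24 root arrays they gave 11 calls. As a block within the 8 arrays alone, a fit added after the data were seen, they gave 300 calls (180 higher and 120 lower). All 13 calls were among those 300. The 3' to 5' difference of the actin controls, a measure of RNA integrity and labelling, was 1.195 to 1.681 log2 in mutant and 1.123 to 1.244 in wild type. Serial numbers of the arrays ran from 13 to 16 for mutant and from 9 to 12 for wild type, so array order and genotype cannot be told apart.

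The root labels were borne out by tissue markers. The mean of 3 measured root markers was 9.09 to 9.97 in mutant roots and 9.59 to 10.12 in wild type roots, against 5.90 to 6.45 in shoots at 2 µM. The mean of 3 measured photosynthetic markers was 7.78 to 8.37 in mutant roots and 7.06 to 8.07 in wild type roots, against 12.95 to 13.09 in those shoots.

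bZIP19 (AT4G35040), the marker of the genotype, had the largest difference of the comparison. Its signal was 4.37, 4.36, 4.75 and 4.37 in the mutant roots, against 9.80, 9.73, 10.02 and 9.89 in the wild type roots. Every mutant array lay far below every wild type array. The means were 4.46 ± 0.19 in mutant and 9.86 ± 0.13 in wild type (SD, n = 4 each), at least 42.2-fold lower in mutant (log2 difference -5.40, SE 0.14, adjusted p = 3.16e-17 by limma). The mutant mean lay above only 10.8% of all probe sets, where background can make up the signal, so this fold is a lower bound. The bZIP23 transcript was not analysed here, since the annotation gives it no probe set of its own. The third member of the F group, BZIP24, averaged 6.17 in mutant and 6.23 in wild type (log2 difference -0.06).

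Next in size were 3 probe sets that were 9.12-fold to 14.8-fold lower in mutant roots. The first, 266336_at, stood at 6.59, 6.55, 6.75 and 6.71 in mutant, against 10.34, 10.32, 10.96 and 10.56 in wild type. The groups were widely separated, and the difference was 14.8-fold (log2 difference -3.89, SE 0.13, adjusted p = 1.84e-15). AT5G24240, a member of the gamma family of phosphatidylinositol kinases, stood at 6.66, 6.56, 6.96 and 6.89 in mutant, against 10.01, 9.96, 10.22 and 10.02 in wild type. All 4 mutant arrays were again far below the 4 wild type arrays (9.77-fold, log2 difference -3.29, SE 0.11, adjusted p = 1.86e-15). One probe set reads AT3G59930 and AT5G33355 together, genes for defensin-like proteins of the bZIP19/bZIP23 target set. It stood at 8.82, 7.91, 8.11 and 8.35 in mutant, against 11.63, 11.66, 11.34 and 11.32 in wild type. The pair was 9.12-fold lower in mutant (log2 difference -3.19, SE 0.23, adjusted p = 1.32e-08), and the mutant arrays were more spread (SD 0.39) than the wild type arrays (SD 0.18).

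**Figure D1:**
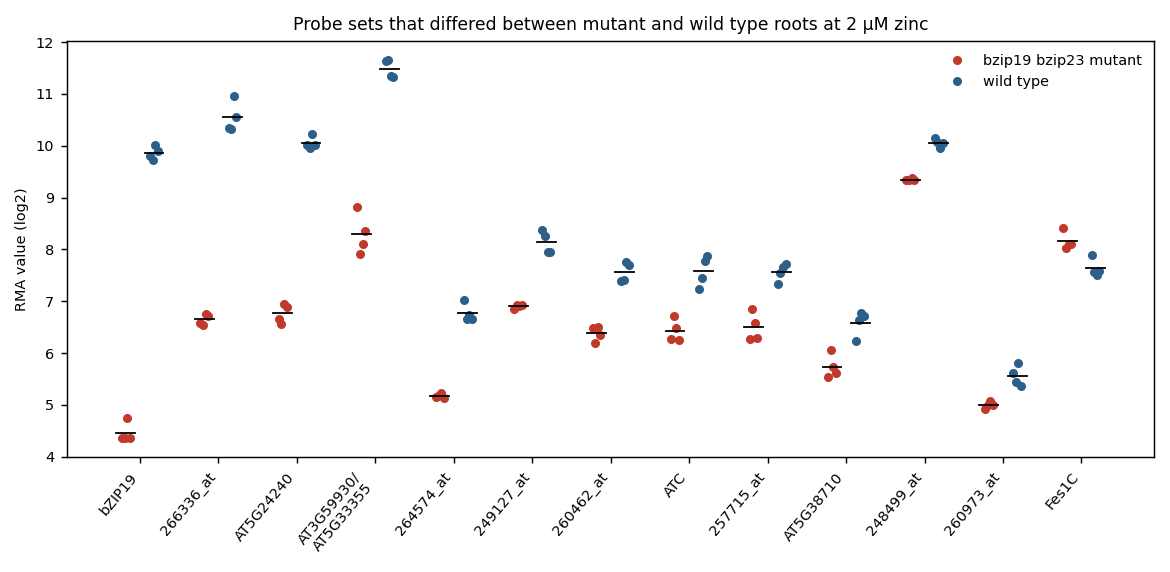
RMA values (log2, vertical axis) of the 13 called probe sets in each array of mutant (red, left of each pair) and wild type roots (blue) at 2 µM zinc, with group means as bars. The mutant and wild type points do not overlap for any of the 13, and bZIP19 has the widest gap, at 4.46 against 9.86.

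A second tier of 5 probe sets, none paired with 1 gene except ATC, was between 2.09-fold and 3.03-fold lower in mutant roots. The probe set 264574_at stood at 5.15, 5.18, 5.23 and 5.13 in mutant, against 7.03, 6.65, 6.74 and 6.67 in wild type. There was hardly any spread among the mutant arrays (3.03-fold, log2 difference -1.60, SE 0.12, adjusted p = 1.92e-08). Their mean of 5.17 was toward the low end of the signal range. Background may limit it there, so the fold may be a lower bound. For 249127_at the mutant values were 6.86, 6.94, 6.91 and 6.92 and the wild type values 8.38, 8.25, 7.96 and 7.96, a 2.35-fold difference (-1.23 log2, SE 0.10, adjusted p = 1.44e-07). For 260462_at they were 6.49, 6.19, 6.50 and 6.35 in mutant and 7.39, 7.40, 7.75 and 7.70 in wild type (2.26-fold, log2 difference -1.18, SE 0.10, adjusted p = 1.25e-07). In each of these 3 the lowest wild type array lay well above the highest mutant array. The probe set 257715_at had 6.28, 6.85, 6.59 and 6.29 in mutant, against 7.33, 7.54, 7.67 and 7.72 in wild type (2.09-fold, log2 difference -1.06, adjusted p = 3.48e-05). Its mutant replicate 2 came nearest to the wild type arrays.

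ATC (AT2G27550), the homologue of CENTRORADIALIS and a relative of the flowering repressor TFL1, stood at 6.27, 6.71, 6.48 and 6.25 in mutant roots, against 7.24, 7.46, 7.78 and 7.88 in wild type roots. The 2 groups did not overlap, and ATC was 2.23-fold lower in mutant (log2 difference -1.16, SE 0.22, adjusted p = 0.0381). This call was near the threshold: it was lost with the replicate block over 24 arrays (adjusted p = 0.127), with the actin control difference as a covariate (adjusted p = 0.285) and without any of 6 of the 8 arrays, namely mutant replicates 1, 3 and 4 and wild type replicates 2, 3 and 4. Its adjusted p ran from 0.00172 to 0.285 over 21 alternatives, and its difference from -1.28 to -1.06.

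The remaining 3 probe sets lower in mutant differed by less than 2-fold. AT5G38710, the second of a pair of mitochondrial proline dehydrogenases that start proline breakdown, stood at 5.53, 6.06, 5.73 and 5.61 in mutant, against 6.24, 6.64, 6.77 and 6.71 in wild type (1.81-fold, log2 difference -0.85, SE 0.12, adjusted p = 0.00137). The highest mutant array, replicate 2, and the lowest wild type array, replicate 1, were close without crossing. The probe set 248499_at was tight in both groups, with 9.34, 9.34, 9.38 and 9.33 in mutant and 10.15, 10.07, 9.96 and 10.05 in wild type (1.64-fold, log2 difference -0.71, adjusted p = 1.07e-05). The probe set 260973_at had 4.92, 4.99, 5.08 and 5.01 in mutant, against 5.61, 5.45, 5.81 and 5.37 in wild type (1.48-fold, log2 difference -0.56, adjusted p = 0.00428), at the low end of the signal range. With the actin covariate its adjusted p was 0.0852.

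Fes1C (AT5G02150), a nucleotide exchange factor of Hsp70 chaperones, was the 1 probe set called higher. It stood at 8.42, 8.03, 8.10 and 8.10 in mutant roots, against 7.88, 7.56, 7.50 and 7.59 in wild type roots. Replicate 1 was the highest array of each genotype, and the groups did not overlap (1.44-fold, log2 difference 0.53, SE 0.10, adjusted p = 0.0379). The call was lost under 14 of 21 alternatives, among them the replicate block over 24 arrays (adjusted p = 0.105) and leaving out mutant replicate 1, 3 or 4 or wild type replicate 2, 3 or 4, with an adjusted p of 0.00442 to 0.529.

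The same 13 probe sets were read in the 16 root arrays at low and excess zinc, none of which entered the group means at 2 µM, although all root arrays shared in the estimate of the spread. Averaged over those 2 supplies, 30 probe sets were called between mutant and wild type (0.132%), and 11 of the 13 were among them, which is 84.6% of the 13 and 36.7% of the 30. All 13 had the same sign as at 2 µM, against 68.2% of all probe sets. The log2 differences there were -5.18 for bZIP19, -3.47 for AT5G24240 (SE 0.08, adjusted p = 4.49e-19), -3.29 for 266336_at and -2.88 for the AT3G59930/AT5G33355 probe set. AT5G38710 was lower by a log2 difference of -0.51 (adjusted p = 0.00954). ATC at -0.72 (adjusted p = 0.0684) and Fes1C at 0.20 (adjusted p = 0.274) were not called. The count of 30 was 55 without mutant replicate 4 at excess zinc and 123 without wild type replicate 4 at excess zinc.

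**Figure D2:**
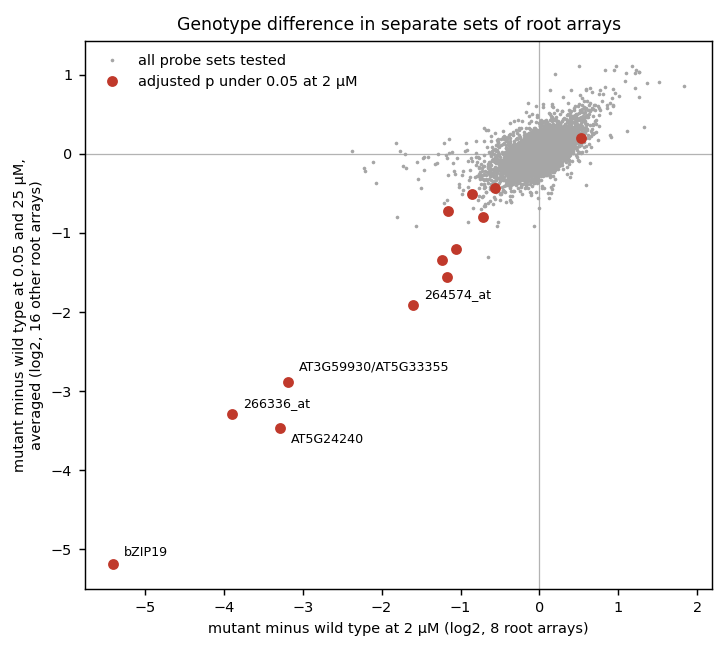
Mutant minus wild type difference (log2) at 2 µM in the 8 root arrays (horizontal axis) and averaged over low and excess zinc in the 16 other root arrays (vertical axis), for all 22746 probe sets (grey) and the 13 called at 2 µM (red). The 4 largest differences at 2 µM, led by bZIP19 at -5.40 and -5.18, lie far from the cloud on both axes.

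Other probe sets called at low and excess zinc stood on the same side at 2 µM without passing the test there. ZIP9 (AT4G33020), a zinc importer of the target set, was at 5.92, 5.76, 5.90 and 6.02 in mutant roots at 2 µM, against 6.29, 6.28, 6.71 and 6.47 in wild type roots. The groups did not overlap, but the log2 difference of -0.54 (SE 0.15) gave an adjusted p of 0.269. With the replicate block within the 8 arrays alone it was 0.0296, in a fit that called 1.32% of all probe sets. Averaged over low and excess zinc, the log2 difference of ZIP9 was -0.91 (adjusted p = 2.88e-05). At low zinc its arrays ran from 5.50 to 6.14 in mutant and from 7.17 to 7.36 in wild type. The genotypes overlapped at excess zinc, with 6.90 to 7.13 in mutant and 7.05 to 7.85 in wild type. AT1G20380, of the prolyl oligopeptidase family, was at -0.63 at 2 µM (adjusted p = 0.204) and -0.60 at the other supplies (adjusted p = 0.00954). AT5G44060 was at -0.59 (adjusted p = 0.229) and -0.64 (adjusted p = 0.0045), and AT5G26270 at 0.59 (adjusted p = 0.334) and 0.81 (adjusted p = 0.0334).

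The 12 probe sets lower in mutant fell into different patterns along the zinc series of wild type roots. At low, normal and excess zinc, 266336_at averaged 7.22, 6.65 and 6.90 in mutant, against 12.08, 10.54 and 8.62 in wild type. The AT3G59930/AT5G33355 probe set averaged 8.51, 8.30 and 8.33 in mutant, against 13.96, 11.49 and 8.64 in wild type. The probe set 264574_at averaged 5.18, 5.17 and 5.22 in mutant, against 8.26, 6.77 and 5.96 in wild type. Wild type means thus stood lower at each higher supply, while the mutant means lay close together. For 264574_at the mutant level was near background, where a change may not be measurable. The same order in wild type held for 260462_at, at 6.42, 6.38 and 6.42 in mutant and 9.18, 7.56 and 6.79 in wild type. It also held for 248499_at (9.45, 9.35 and 9.33 in mutant, 10.79, 10.06 and 9.59 in wild type). For 257715_at the means were 6.52, 6.50 and 6.71 in mutant and 8.35, 7.56 and 7.29 in wild type, so that the genotypes lay closest at excess zinc in all 6.

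Of the 13, 7 passed the test of low against excess zinc in wild type roots, in which 4011 probe sets (17.6%) were called and in which low and excess zinc lie on different array dates. These were the 6 above, higher at low zinc, and AT5G38710, lower at low zinc (log2 difference -0.57, adjusted p = 0.00253). The 6 also passed the test of whether the genotype difference itself changed between low and excess zinc, a comparison added after the data were seen in which both genotypes share the dates and no group mean at 2 µM is used. That test called 38 probe sets (0.167%), among them 6 of the 13, which is 46.2% of the 13 and 15.8% of the 38. The genotype difference at low minus that at excess zinc was -5.15 for the AT3G59930/AT5G33355 probe set (SE 0.33, adjusted p = 1.2e-09), -3.13 for 266336_at and -2.39 for 260462_at. It was -2.33 for 264574_at, -1.26 for 257715_at and -1.08 for 248499_at. The count of 38 ran from 8 to 616 over single arrays left out, with 616 without wild type replicate 4, 82 without mutant replicate 4 and 8 without mutant replicate 3 at excess zinc, and 8 without wild type replicate 3 at low zinc.

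For bZIP19, AT5G24240, 249127_at, 260973_at and ATC the test of low against excess zinc in wild type did not pass (adjusted p = 0.439, 0.593, 0.896, 0.83 and 0.765). AT5G24240 averaged 6.94, 6.77 and 6.54 in mutant roots at low, normal and excess zinc, against 10.15, 10.05 and 10.26 in wild type roots. The change of its genotype difference between low and excess zinc was 0.50 (SE 0.16, adjusted p = 0.165). For 249127_at the mutant means were 6.96, 6.91 and 6.76 and the wild type means 8.22, 8.14 and 8.19. For 260973_at they were 5.06, 5.00 and 5.17 in mutant and 5.57, 5.56 and 5.52 in wild type. ATC and AT5G38710 had another shape, with the lowest mean of each genotype at 2 µM: ATC averaged 7.53, 6.43 and 7.68 in mutant, against 8.25, 7.59 and 8.39 in wild type.

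**Figure D3:**
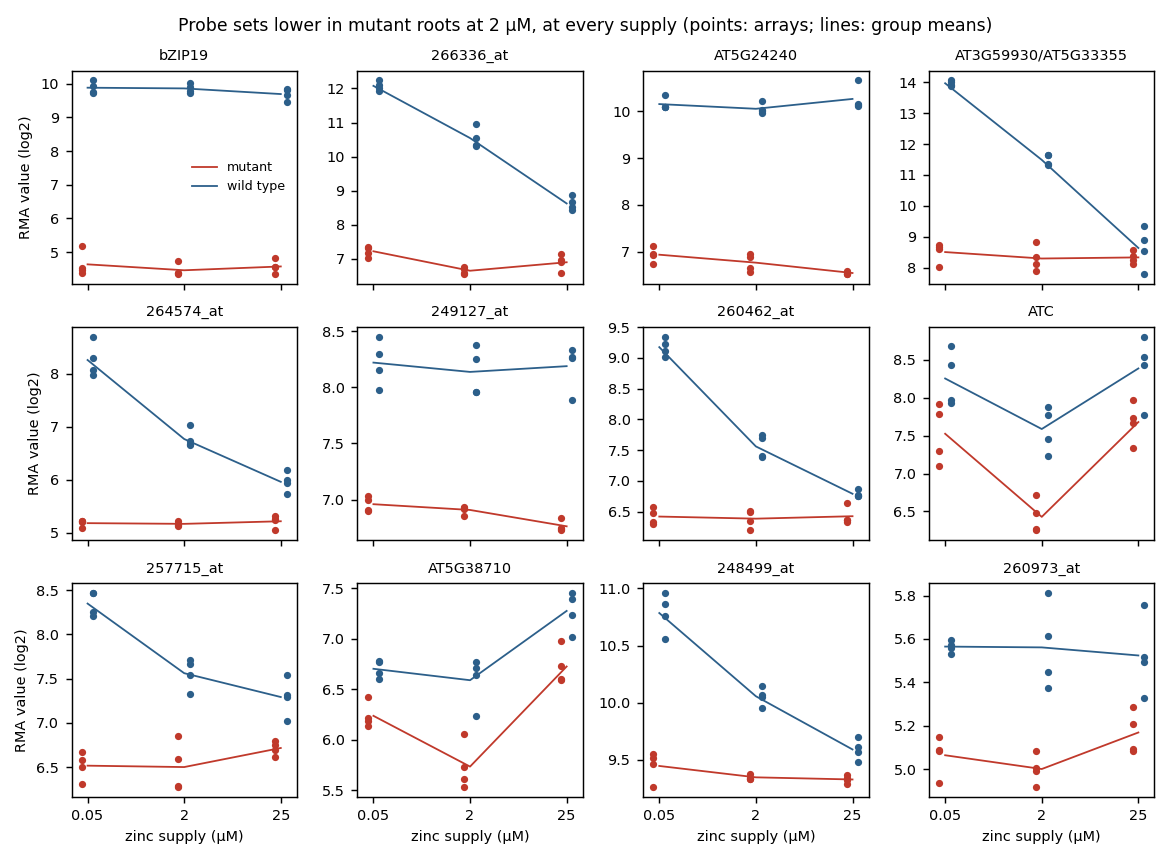
RMA values (log2) of the 12 probe sets lower in mutant roots at 2 µM, at 0.05, 2 and 25 µM zinc (evenly spaced on the horizontal axis). Points are arrays and lines join group means, with mutant in red and wild type in blue. The wild type line falls with supply in 6 panels, such as 266336_at at 12.08, 10.54 and 8.62, and is nearly level for bZIP19, AT5G24240 and 249127_at.

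Against normal zinc, the genotype difference was tested at each other supply, in comparisons that share the 2 µM arrays with the calls. At low zinc it was larger for 4 probe sets (0.0176%), by -2.27 for the AT3G59930/AT5G33355 probe set (adjusted p = 0.00428), -1.58 for 260462_at, -1.48 for 264574_at and -0.63 for 248499_at. The call of 248499_at was lost in 12 of 16 fits that left out an array, and with the replicate block (adjusted p = 0.0812). At excess zinc it was smaller for 3 (0.0132%), by 2.88 for the AT3G59930/AT5G33355 probe set (adjusted p = 0.000121), 2.16 for 266336_at and 0.81 for 260462_at (adjusted p = 0.0488), which was lost without any of 13 of the 16 arrays. Leaving out wild type replicate 4 at excess zinc made that 31.

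In shoots at 2 µM, with 3 arrays of each genotype, 5 probe sets were called (0.022%), and 4 of them were among the 13 called in roots, which is 30.8% of the 13. bZIP19 averaged 4.52 in mutant and 8.95 in wild type shoots (log2 difference -4.43), and AT5G24240 averaged 6.45 in mutant and 9.87 in wild type shoots (-3.43, SE 0.14, adjusted p = 2.48e-10). 264574_at and 260462_at were lower by smaller log2 differences, -0.66 and -0.78 (adjusted p = 0.0366 each). Both of these calls were lost without any 1 of the 6 arrays, and that of 264574_at with the replicate block (adjusted p = 0.0631), while bZIP19 and AT5G24240 kept theirs throughout. The count of 5 became 2 or 3 without any 1 of the 6 arrays.

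Roots and shoots differed in the size of the genotype difference for 5 probe sets (0.022%), 4 of them among the 13. The probe set 266336_at averaged 5.49 in mutant and 5.33 in wild type shoots, and its genotype difference in roots minus that in shoots was -4.05 (adjusted p = 2.61e-14). For the AT3G59930/AT5G33355 probe set, at 5.58 in mutant and 5.91 in wild type shoots, that value was -2.86 (adjusted p = 2.57e-06). It was -0.94 for 264574_at (adjusted p = 0.0133) and -1.13 for AT5G38710 (adjusted p = 0.00952), which was at 6.20 in mutant and 5.92 in wild type shoots. The wild type shoot level of the first 2 lay far below the root level. The call of 264574_at was lost without wild type shoot replicate 2 (adjusted p = 0.0688) and that of AT5G38710 without mutant shoot replicate 1 (adjusted p = 0.0512). AT5G38710 also lost its call when only the arrays of the compared groups were fitted (adjusted p = 0.105). The count of 5 was 12 without mutant shoot replicate 3.

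**Figure D4:**
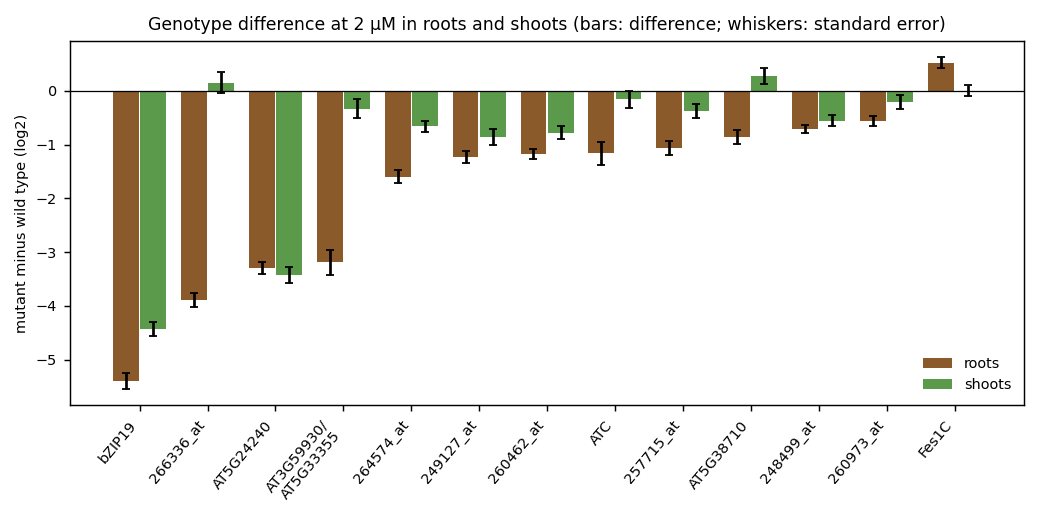
Mutant minus wild type difference (log2) at 2 µM in roots (brown, left) and shoots (green) for the 13 probe sets, as bars from 0 with standard errors as whiskers. bZIP19 and AT5G24240 were low in both tissues (-3.29 in roots and -3.43 in shoots for AT5G24240), whereas 266336_at was at -3.89 in roots and 0.16 in shoots.

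Beyond the calls, 14 probe sets paired with 1 gene had no overlap between the genotypes and differed by at least 1.5-fold without passing the test. Over all probe sets, 948 (4.17%) had no overlap, 403 lower and 545 higher in mutant, and 36 (0.158%) of all had no overlap with at least 1.5-fold. Among the 9 lower ones PRX52, a class III peroxidase, stood at 6.37, 6.38, 6.16 and 6.11 in mutant roots, against 6.77, 7.43, 7.61 and 7.06 in wild type roots (log2 difference -0.96, adjusted p = 0.305). AT5G39580 was at -0.73 (adjusted p = 0.33) and AT4G36430 at -0.69 (adjusted p = 0.27). In each of these genes the wild type array nearest to the mutant was replicate 1. The others were the RING finger gene AT2G47560 (-0.74), the VQ motif gene AT4G39720 (-0.71), the mitochondrial carrier gene AT5G26200 (-0.69) and the small heat shock gene AT5G51440 (-0.68), along with AT1G20380 and AT5G44060.

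The 5 higher ones were STR18, OCT1, WNK9, AT1G28070 and AT5G26270. STR18, a sulfurtransferase, was at 10.61, 8.23, 8.67 and 8.48 in mutant roots, against 8.00, 7.19, 7.44 and 7.27 in wild type roots. The log2 difference was 1.52 (SE 0.51), with an adjusted p of 0.297. Mutant replicate 1 was far above the other mutant arrays, and wild type replicate 1 was the highest wild type array. OCT1, an organic cation and carnitine transporter, was at 7.88, 5.73, 5.57 and 5.44 in mutant, against 5.25, 5.34, 5.27 and 5.17 in wild type (0.90, adjusted p = 0.458), so that its difference came mostly from mutant replicate 1. WNK9, a WNK family protein kinase, was at 8.44, 8.11, 8.17 and 7.97 in mutant, against 7.70, 7.35, 7.51 and 7.26 in wild type (0.72, adjusted p = 0.204). Of the 14, 10 were called with the replicate block within the 8 arrays, for example PRX52 and STR18 (adjusted p = 0.0249 each). That fit called 1.32% of all probe sets. The 14 were picked on their values in the same 8 arrays, so a higher share among them follows from the selection and is no further evidence. Without wild type replicate 1, 4 were called (WNK9, AT2G47560, AT1G20380 and AT5G44060), and without mutant replicate 2 AT1G20380 alone. From all 42 arrays WNK9 and AT2G47560 were called, and OCT1 and AT5G51440 were called under no alternative.

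Among members of the lists for zinc and other metals that the annotation names, only bZIP19 and the AT3G59930/AT5G33355 probe set were called. Of 12 genes of the bZIP19/bZIP23 target set, the annotation gives ZIP9 alone a probe set of its own, and 2 shared the probe set described above. The other members of that set have no named probe set. Whether any of the 7 called probe sets without a gene reads such a member was not determined, so nothing is shown here about them. ZIP6, a related importer outside that set, averaged 8.58 in both genotypes (log2 difference 0.00, adjusted p = 0.992). Of 13 genes of zinc efflux and sequestration, 3 were measured and none was called, with MTP8 (AT3G58060), a manganese transporter, at -0.39, MTPA1 at -0.05 and MTP11 at 0.08. MTPA1 averaged 4.17 in mutant and 4.23 in wild type, no higher than bZIP19 in mutant, where a difference may not be measurable. Of 10 copper homeostasis genes 2 were measured and none was called, the copper chaperone CCS being at 0.23. Since only 0.0572% of all probe sets were called, the absence of calls among so few measured genes says little about these lists.

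The iron deficiency list had 15 probe sets for 14 of its 30 genes. None was called, 12 lay below 0 and the median was -0.15. Over all probe sets 0.0572% were called, 49.9% lay below 0 and the median was 0.00. AT5G05250 was at 7.67, 7.94, 7.92 and 7.72 in mutant roots, against 7.73, 8.83, 9.07 and 8.45 in wild type roots (log2 difference -0.71, adjusted p = 0.284). IMA1 (AT1G47400), a peptide of iron signalling, was at 6.17, 6.44, 6.29 and 6.31 in mutant, against 6.14, 7.79, 7.04 and 6.68 in wild type (-0.61, adjusted p = 0.397). Wild type replicate 1 lay within the range of the mutant arrays for AT5G05250 and just below all of them for IMA1. Without wild type replicate 1, AT5G05250 was called (log2 difference -0.97, adjusted p = 0.0244), against 1.53% of all probe sets in that fit, and the median of the list was -0.37. BHLH101, a transcription factor induced by iron shortage, was at 0.31 (adjusted p = 0.351), near background at 4.78 in mutant and 4.47 in wild type.

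The hypoxia list had the lowest median of the lists with more than 2 probe sets. Its 6 measured genes of 15 all lay below 0, from -2.22 to -1.10 with a median of -1.55, and none was called (smallest adjusted p = 0.284), against 49.9% below 0 and 0.0572% called over all probe sets. AT5G10040 was at 8.98, 10.35, 8.77 and 8.03 in mutant roots, against 9.36, 11.89, 11.70 and 12.06 in wild type roots. The log2 difference was -2.22 (SE 0.82), with an adjusted p of 0.321. Wild type replicate 1 lay within the range of the mutant arrays, and mutant replicate 2 was the highest of its group. AT3G10040, which encodes a trihelix transcription factor that dampens the hypoxia response, was at 8.14, 9.12, 8.22 and 7.73 in mutant, against 8.73, 9.99, 9.76 and 10.06 in wild type (-1.33, SE 0.41, adjusted p = 0.284). With the replicate block within the 8 arrays AT3G10040 (adjusted p = 0.0415) and AT5G66985 (adjusted p = 0.0351) were called, against 1.32% of all probe sets, and without wild type replicate 1 none was (smallest adjusted p = 0.0522, median -1.92).

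Averaged over the 6 genes, the arrays at 2 µM stood at 8.48, 9.72, 8.54 and 8.00 in mutant and at 8.99, 10.69, 10.62 and 10.89 in wild type. At low zinc the 6-gene means ran from 6.91 to 10.36 in mutant and from 8.38 to 9.34 in wild type, and at excess zinc from 10.27 to 11.44 in mutant and from 9.91 to 11.60 in wild type. The genotypes overlapped at every supply, and the mutant arrays at low zinc were the most spread. 

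**Figure D5:**
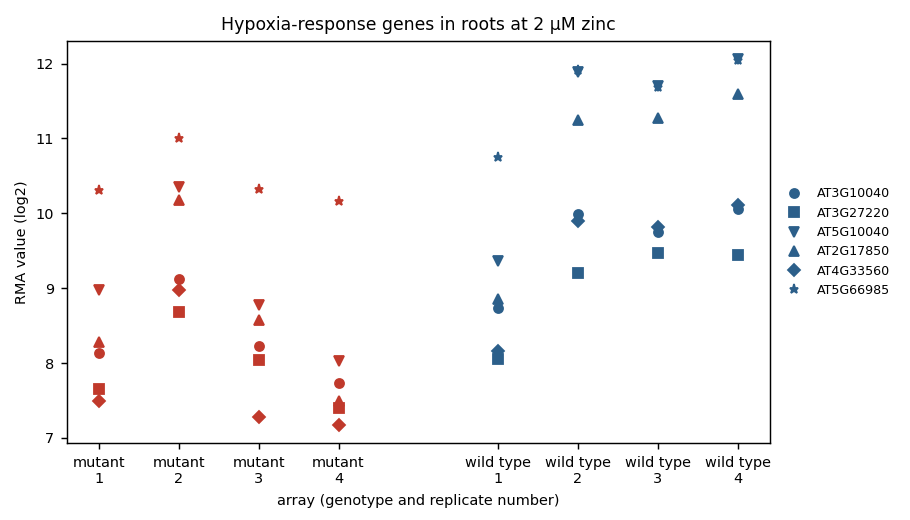
RMA values (log2) of the 6 measured hypoxia-response genes in each mutant (red, left) and wild type (blue, right) root array at 2 µM, with a marker shape for each gene. All 6 genes are low in wild type replicate 1 compared with the other 3 wild type arrays, such as AT5G10040 at 9.36 against 11.70 to 12.06.

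Of 12 plant defensins 9 were measured. None was called, and 7 lay below 0 with a median of -0.12, against 0.0572% called and 49.9% below 0 over all probe sets. Of the 9, 3 stood near background, with means in both genotypes no higher than 4.92, the highest bZIP19 mean of a mutant group. PDF2.1 was at 7.02, 7.28, 6.76 and 7.17 in mutant, against 7.07, 8.31, 8.12 and 7.78 in wild type (log2 difference -0.76, adjusted p = 0.449), and PDF1.4 was at 0.41 (adjusted p = 0.297). Of 7 sulfate starvation genes 3 were measured, among them MGL, a methionine gamma-lyase, at 10.22, 7.98, 9.38 and 8.50 in mutant, against 9.07, 7.22, 7.79 and 7.18 in wild type. Replicate 1 was the highest in both genotypes, and the log2 difference of 1.21 had an adjusted p of 0.371. With the replicate block within the 8 arrays it was 0.00685, in a fit that called 1.32% of all probe sets. The clock gene GI was at 0.13. No member of the phosphate starvation list or of the salicylate and jasmonate list was measured under its own name.

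The few measured markers of photosynthetic tissue and of roots lay on opposite sides of 0. The genotypes overlapped for every one of them, and 3 genes of a list are too few to read a direction from. Wild type replicate 1 lay within the range of the mutant arrays for PSAN (7.65, against 7.03 to 8.12) and CHLM (9.53, against 9.21 to 9.56). None was called in the fit of 24 root arrays, against 0.0572% of all probe sets. All 3 measured photosynthetic markers of 18 lay above 0, against 50.1% of all probe sets. PSAN, a subunit of photosystem I, was at 0.85 (adjusted p = 0.327). Its adjusted p was 0.0202 with the replicate block within the 8 arrays, a fit that called 1.32% of all probe sets. CHLM, an enzyme of chlorophyll synthesis, was at 0.39 and RCA, the activase of Rubisco, at 0.29. All 3 measured root markers of 18 lay below 0, against 49.9%, with the root hair expansin EXPA18 at -0.50, PYK10, a root beta-glucosidase, at -0.36 and EXPA7 at -0.13. The part of these differences in the calls was not tested.

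Genes near bZIP19, bZIP23 and AT5G24240 on the chromosome were also read. The 30 neighbours were the nearest 5 measured genes on each side of each gene, at positions from -19 to 17 in gene order. Genes between them without a probe set of their own were passed over. None of the 30 was called, against 0.0572% of all probe sets. The differences ran from -1.08 for AT4G34950 (adjusted p = 0.27) to 0.28 for AT5G24260. AT4G34950, at position -11 from bZIP19, was called without wild type replicate 1 (log2 difference -1.49, adjusted p = 0.011), a fit that called 1.53% of all probe sets. AT2G16760, directly next to bZIP23 (position -1), was called with the replicate block within the 8 arrays (-0.48, adjusted p = 0.0191), a fit that called 1.32%. Each was the only neighbour called in its fit.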

How the data were processed

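Total RNA of 42 root and shoot samples was biotin-labelled and hybridised to Affymetrix ATH1 arrays, per the labels' protocols. The deposited table holds log2 values that the authors made with RMA, per the submitters' processing notes, which also name limma; no version or annotation build is given in the labels or files used here. RMA corrects background and equalises the distributions of the arrays, so a shift of all genes cannot be seen, and raw intensities were not used. The precision is limited by the number of arrays, 4 in each root group and 3 in each shoot group.

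Differences were fitted with limma 3.58.1 in R 4.3.3, with 1 mean per group over the 24 root or 18 shoot arrays (all 42 for roots against shoots), and p-values (two-sided) were adjusted by the Benjamini-Hochberg method over 22746 probe sets in each of 8 comparisons. The fit was tested on simulated data. Plots used Python 3.11.15 with matplotlib 3.10.9.

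Of the 22746, 13513 (59.4%) were paired with 1 gene, 503 with several and 8730 with none in the platform's annotation. Of the 13513, 13436 matched a gene of the RefSeq table (TAIR10.1), used here only to name genes and order them. Called probe sets were named, with up to 10 per direction of those not called, paired with 1 gene, not overlapping and at least 1.5-fold different. ZIP9, the shared target probe set, BZIP24, up to 4 members with the smallest p of each other list and gene neighbours were added. IMA1 and MTP8 are common names given by the lists. The members, lists and rules were chosen with earlier results of these data known, and the change of the genotype difference between low and excess zinc was added after the data were seen.

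Replicate numbers come from the sample titles. Same-numbered mutant and wild type root arrays at 2 µM deviated together from their group means (r of 0.50, 0.28, 0.20 and 0.23 across probe sets), so the numbers were taken to pair samples, although mutant replicate 2 had a higher r with a wild type array of another number (0.34). Alternatives covered the arrays fitted, the spread estimate, a filter on low values (log2 of at least 5 in 4 arrays), normalisation, a 2-fold minimum, the actin control as a covariate, the replicate block and leaving out arrays.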

Additional observations from a re-analysis of the deposited data

Results flagged for a closer look

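Of 166 groups of 4 arrays tested over the named genes, 11 (6.63%) held an array far from the other 3 by Dixon's criterion, which chance gives for about 1 in 20 groups. In mutant roots at 2 µM these were bZIP19 in replicate 3 (4.75, against 4.36 to 4.37 in the others), AT5G51440 in replicate 2 (5.42, against 5.33) and OCT1 in replicate 1 (7.88, against 5.44 to 5.73). In wild type roots at 2 µM they were CCS (9.97, against 9.38 to 9.48) and the hypoxia-response gene AT4G33560 (8.16, against 9.82 to 10.11), both in replicate 1. At low zinc, 264574_at stood out in mutant replicate 1 (5.10) and AT5G24240 in wild type replicate 3 (10.34). At excess zinc, 260462_at stood out in mutant replicate 2 (6.64) and wild type replicate 3 (6.87), AT5G24240 in wild type replicate 2 (10.66) and 249127_at in wild type replicate 4 (7.89).

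Genotype differences that differed between zinc supplies or tissues were also picked out, by the limma test of the difference itself. At low minus normal zinc in roots they were -2.27 for the AT3G59930/AT5G33355 probe set, -1.48 for 264574_at, -1.58 for 260462_at and -0.63 for 248499_at. At excess minus normal zinc they were 2.16 for 266336_at, 2.88 for the AT3G59930/AT5G33355 probe set and 0.81 for 260462_at. For roots minus shoots at 2 µM they were -4.05 for 266336_at, -2.86 for the AT3G59930/AT5G33355 probe set, -0.94 for 264574_at and -1.13 for AT5G38710. At low minus excess zinc in roots they were -3.13 for 266336_at, -5.15 for the AT3G59930/AT5G33355 probe set, -2.33 for 264574_at, -2.39 for 260462_at, -1.26 for 257715_at, -1.08 for 248499_at and -1.01 for ZIP9 (adjusted p = 0.0483). The ZIP9 call was lost in 13 of 16 fits that left out an array, and with the replicate block (adjusted p = 0.0643).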

How the results depend on the processing

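The count of 13 called probe sets at 2 µM ran from 11 to 348 over single arrays left out, with 21 from all 42 arrays and 300 with the replicate block within the compared groups alone (added after the data were seen). The replicate block over 24 arrays gave 11 and, besides ATC and Fes1C, took the call of no other probe set at 2 µM. The 8 probe sets bZIP19, 266336_at, AT5G24240, the AT3G59930/AT5G33355 probe set, 264574_at, 249127_at, 260462_at and 257715_at kept their calls under all 21 alternatives. 248499_at lost its call with the 2-fold minimum, AT5G38710 with that or the compared groups alone, and 260973_at under 4 alternatives. None of the 13 called differences reversed. The uncalled and near-zero differences of EXPA7, ZIP6, BZIP24 and BGLU28 changed sign under some alternatives, as in -0.32 to 0.19 for EXPA7. For mutant against wild type at low and excess zinc (30), the count was 10 with the 2-fold minimum and 89 from all 42 arrays, and 20 to 123 over arrays left out. In shoots (5) it was 3 with the compared groups alone, 3 with a trended spread, 2 with the 2-fold minimum, 37 from all 42 arrays and 2 to 3 over arrays left out. The change at low against normal zinc (4) ran from 3 to 5 over arrays left out, and that at excess against normal (3) from 2 to 31, with 8 from all 42 arrays. Roots against shoots (5) gave 8 with the compared groups alone, 3 with the 2-fold minimum and 4 to 12 over arrays left out. In wild type, low against excess zinc (4011) gave 2359 with the compared groups alone, 449 with the 2-fold minimum, 2475 with the actin covariate and 2948 to 4651 over arrays left out. The change at low against excess zinc (38) gave 9 with the compared groups alone, 59 with the filter, 24 with repeated quantile normalisation, 17 with the 2-fold minimum, 19 with the actin covariate, 121 from all 42 arrays and 8 to 616 over arrays left out. The 2-fold minimum and the smaller sets of arrays lower counts in part by construction; the cause of the other shifts was not tested. Signals near 4 to 5 log2 units, such as bZIP19 in mutant and 260973_at, are limited by background, and that of 264574_at in mutant roots may be.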

Other observations

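At low and excess zinc combined, 19 probe sets were called between mutant and wild type roots that were not called at 2 µM. All 19 had the same sign at 2 µM, against 68.2% of all probe sets. Among those paired with 1 gene, the LIM domain gene PLIM2b was at 0.30 at the other supplies (adjusted p = 0.00821) and 0.27 at 2 µM (adjusted p = 0.252), with no overlap of the arrays at 2 µM. AT1G43910 was at -0.47 (adjusted p = 0.00603) and -0.34 (adjusted p = 0.288), AT2G37580 at -0.35 and -0.30, AT3G12760 at -0.24 and -0.09, and AT2G30930 at 0.32 and 0.05. These genes were chosen after their values were seen.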
